A study of Mus musculus with 6 samples.

Results

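The 9 genes described here encode ligands and receptors of the epidermal growth factor (EGF) receptor family: the ligands Egf, Hbegf, Areg, Ereg, Tgfa and Btc and the receptors Egfr, Erbb2 and Erbb3. They were found by their symbols among the 31053 genes of the deposited kidney and mammary tumor tables, and all 9 were present in both. Their UMIs (unique molecular identifiers, each standing for 1 captured RNA molecule) were summed by library and by cell type in 6 droplet libraries. The study asked what a microfluidic tissue dissociation device yields compared with ordinary digestion. Kidneys came from C57BL/6 mice, an inbred strain, that were 12 weeks old and male. Mammary tumors came from 10-week-old female MMTV-PyMT mice, in which the MMTV promoter drives the polyoma middle T oncogene in mammary epithelium, so the tumor epithelium and the other cells of these libraries share that transgene background. For each tissue there was 1 library of a control digested for 60 min, 1 of the cells that the device platform released by its 15 min interval and 1 of those collected at its 60 min interval. In the paper, intervals are successive collections from the same tissue sample, so the 60 min library holds cells released after the 15 min collection. The paper also states that control and device conditions of a replicate used tissue from the same mouse. All libraries shared 0.25% type I collagenase, removal of red cells, a sort for cells that exclude the dye SytoxBlue, and 10x version 3 chemistry.

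The ligands are made as membrane-anchored precursors and act on neighboring cells after metalloproteases cut them free. They bind the extracellular part of the receptors, which pair, switch on their tyrosine kinase domains and signal through RAS and ERK. ERBB2 has no ligand of its own and ERBB3 has a weak kinase, so both work in pairs with other members. Egf is made in large amounts by the distal nephron of the kidney, Hbegf and Areg are known as genes that stressed or activated cells switch on quickly, and receptors of this family are known from normal and malignant mammary epithelium.

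The genes for 3 ligands lie near each other on mouse chromosome 5. In the GENCODE M21 annotation of GRCm38, the build that the mm10 coordinates use, Ereg lies at chr5:91074622-91093646, Areg at chr5:91139599-91148432 (both on the plus strand) and Btc at chr5:91357261-91402994 on the minus strand. Ereg and Areg were 46.0 kb apart and Areg and Btc 209 kb. Egf lies at chr3:129677565-129755316 (minus) and Tgfa at chr6:86195223-86275719 (plus). Of the receptor genes, Egfr lies at chr11:16752203-16918158 (plus), Erbb2 at chr11:98412470-98437716 (plus) and Erbb3 at chr10:128567523-128589652 (minus). These are whole gene spans, and the counts come from 10x libraries that read the 3′ ends of transcripts.

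Areg and Btc are neighbors with unlike levels across these libraries, so the 250 bases before each start site are shown, 5′ to 3′ on the strand of the gene, from RefSeq on GRCm38.p6. Capitals mark matches to 6 motifs that were searched on both strands, and the Areg window is chr5:91139349-91139598 and the Btc window chr5:91402995-91403244.
Areg: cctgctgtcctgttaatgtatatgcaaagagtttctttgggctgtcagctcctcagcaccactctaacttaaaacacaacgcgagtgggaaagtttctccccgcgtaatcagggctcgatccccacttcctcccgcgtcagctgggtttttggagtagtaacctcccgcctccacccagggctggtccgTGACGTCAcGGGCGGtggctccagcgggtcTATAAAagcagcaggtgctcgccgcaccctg
Btc: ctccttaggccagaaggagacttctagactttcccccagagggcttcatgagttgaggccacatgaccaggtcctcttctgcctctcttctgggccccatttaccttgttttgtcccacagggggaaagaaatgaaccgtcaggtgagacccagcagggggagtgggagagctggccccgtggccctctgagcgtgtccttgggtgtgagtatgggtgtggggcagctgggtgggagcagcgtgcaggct

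In the Areg window, the cAMP response element TGACGTCA lay 61 to 54 bases before the start, the GC box GGGCGG 52 to 47 bases and the TATA box TATAAA 31 to 26 bases before it, and none of these matches overlapped. The Btc window held no match to these or to the AP-1 site TGANTCA, the CCAAT box (CCAAT) or the TEAD site GGAATG. Among 32851 RefSeq windows of this length, 1.55% held TGACGTCA, 12.4% TATAAA, 32.7% GGGCGG, 6.75% TGANTCA, 33.8% CCAAT and 12.6% GGAATG. Windows were at hand for 6 of the 9 genes (not for Hbegf, Ereg and Erbb3), with 7 start sites, and of these only Areg held TGACGTCA or TATAAA. Egfr and Tgfa held a GC box, Erbb2 a CCAAT box and a TEAD site, and Egf held none. A match says only that these letters are present.

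The deposited tables held 8152 to 13719 barcodes per library, of which 5736 to 9936 with 33644880 to 61434200 UMIs passed the study's bounds on gene number and mitochondrial percentage. The median depth was 4583 to 9476 UMIs per cell. The 15 min kidney library stood apart with a median mitochondrial share of 20.4%, against 7.38% in the control and 8.59% at 60 min, while the tumor libraries lay between 6.55 and 7.54%. Between 16 and 211 barcodes were found in both of 2 libraries of a tissue, and at most 44 of them were kept in both. A cell entered a class, named with "-like", when it held at least 3 of the 8 marker genes of that class and 2 more than of any other. Levels are given as CPM (UMIs of a gene per 1000000 UMIs of the class or library). The gates use the markers, so these had to be higher in their own class, and the smallest gap was that of Cldn10 in the thick ascending limb-like cells (1211 against 280 CPM). Values below are in the order 60 min control, 15 min interval and 60 min interval unless said otherwise. Each condition had 1 library, so nothing could be tested between conditions, and ratios compare those libraries, not the conditions. The 95% intervals (exact Poisson for levels, Clopper-Pearson for shares, exact conditional binomial for ratios) cover counting error only, and UMIs of 1 cell are not independent, so they are too narrow where few cells hold many UMIs.

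Egf, the ligand that gives the family its name, was a transcript of the distal nephron in the kidney. Thick ascending limb-like cells (110, 67 and 307 cells) held 858, 900 and 4589 UMIs of Egf, or 2296, 2726 and 3542 CPM, and together 66.1% of all Egf UMIs of the kidney. Distal convoluted tubule-like cells (68, 24 and 130 cells) had 649, 1060 and 726 CPM. The ranges of these 2 classes over the 3 libraries did not overlap each other or those of any class below them. Egf was seen in 58.2, 92.5 and 83.1% of thick ascending limb-like cells, at medians of 2563.5, 4327 and 3363 UMIs per cell. After each cell was thinned to 1000 UMIs, which left out 19, 8 and 23 shallower cells, the shares were 41.8, 83.1 and 70.1%, so the control stayed lowest. Relative to the control, the level in these cells was 1.19 times as high at 15 min (interval 1.08 to 1.31) and 1.54 times at 60 min (1.43 to 1.66). The mitochondrial share of these cells moved in the same way, with medians of 21.6, 36.0 and 30.6%, and its part in the difference was not tested.

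Low levels of Egf were also found in classes that are not known to make it, and are given beside Umod, the abundant uromodulin transcript of the thick ascending limb. In the proximal tubule-like cells Egf was at 2.07, 1.96 and 13.2 CPM and Umod at 7.75, 6.39 and 44.5 CPM. In the endothelial-like cells Egf was at 8.74, 11.7 and 44.2 CPM and Umod at 49.5, 39.8 and 208 CPM. The 60 min interval was the highest library for both genes in both classes, while from control to 15 min in endothelial-like cells Egf was higher and Umod lower. What part RNA from other cells had in these levels was not tested. There were 0.267, 0.306 and 0.298 Egf UMIs for each Umod UMI in proximal tubule-like cells and 0.176, 0.293 and 0.213 in endothelial-like cells, near the 0.224, 0.206 and 0.256 of thick ascending limb-like cells. The ratio was higher in distal convoluted tubule-like cells, at 0.458, 0.538 and 0.789. Over whole libraries Egf was at 38.7, 21.2 and 134 CPM, and thick ascending limb-like cells were 1.87, 0.799 and 3.09% of kept cells, the same order. In the tumor Egf was scarce, with 2.05, 2.56 and 1.13 CPM in luminal epithelial-like cells, and the 60 min level was 0.55 times that of the control (0.337 to 0.875).

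Hbegf, which encodes the heparin-binding EGF-like ligand and lies at chr18:36504927-36515805 on the minus strand, was highest in luminal epithelial-like cells in the tumor control and in endothelial-like cells in the kidney control, and was lower in both classes at 15 min. In luminal epithelial-like cells (3416, 3919 and 2444 cells) there were 9355, 1843 and 3538 UMIs, or 300, 46.7 and 148 CPM. At 15 min the level was 0.156 times that of the control (0.148 to 0.164) and the 60 min level 0.493 times (0.474 to 0.513). The 3 intervals did not overlap, and the control was highest. Hbegf was seen in 37.1, 14.3 and 26.1% of these cells, compared with 3.05, 1.89 and 1.51% of tumor T lymphocyte-like cells, a class in which it was near the lowest. The median depths were 8300.5, 9802 and 9307 UMIs in the luminal and 8001, 5823 and 4496 UMIs in the lymphocyte class. Thinned to 1000 UMIs (52, 15 and 23 cells left out), 13.6, 3.07 and 7.68% of luminal epithelial-like cells held Hbegf, in the same order. No single cell carried the difference, since the most UMIs in 1 cell were 91, 57 and 68. If each class had kept its control level, the 15 min tumor library would have held 12574 Hbegf UMIs for its mix of classes, and 2074 were counted.

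The other tumor classes shared the low 15 min level of Hbegf but not the order of the other libraries. Endothelial-like cells had 198, 76.8 and 287 CPM, with Hbegf seen in 36.2, 33.9 and 56.2% of cells and, after thinning, in 10.7, 8.17 and 19.7%. At 15 min it was 0.387 times the control (0.317 to 0.470) and at 60 min 1.45 times (1.29 to 1.63). Macrophage-like cells had 28.7, 3.52 and 38.1 CPM, a ratio of 0.123 (0.0824 to 0.177) at 15 min and 1.33 (1.16 to 1.52) at 60 min. So the 15 min library was lowest in these 2 classes as well, while 60 min was highest, unlike in the luminal epithelial-like cells. Fibroblast-like cells had 19.9, 5.36 and 28.6 CPM. T lymphocyte-like cells had 6, 3 and 15 UMIs in all, and 11 of the 15 at 60 min came from 1 cell. In the macrophage-like cells Krt8, a marker of the luminal class, was at 40.0, 25.7 and 20.6 CPM, highest where Hbegf was not. Hbegf of the luminal class was also set against the cell cycle: in cells that held the cycling markers (103, 46 and 73 cells) its level was 0.314 (0.254 to 0.383), 0.262 (0.105 to 0.541) and 0.520 (0.407 to 0.656) times that of the other luminal epithelial-like cells, lower in 3 of 3 libraries. With 3 pairs an exact two-sided permutation test cannot go below p = 0.25.

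**Figure D1:**
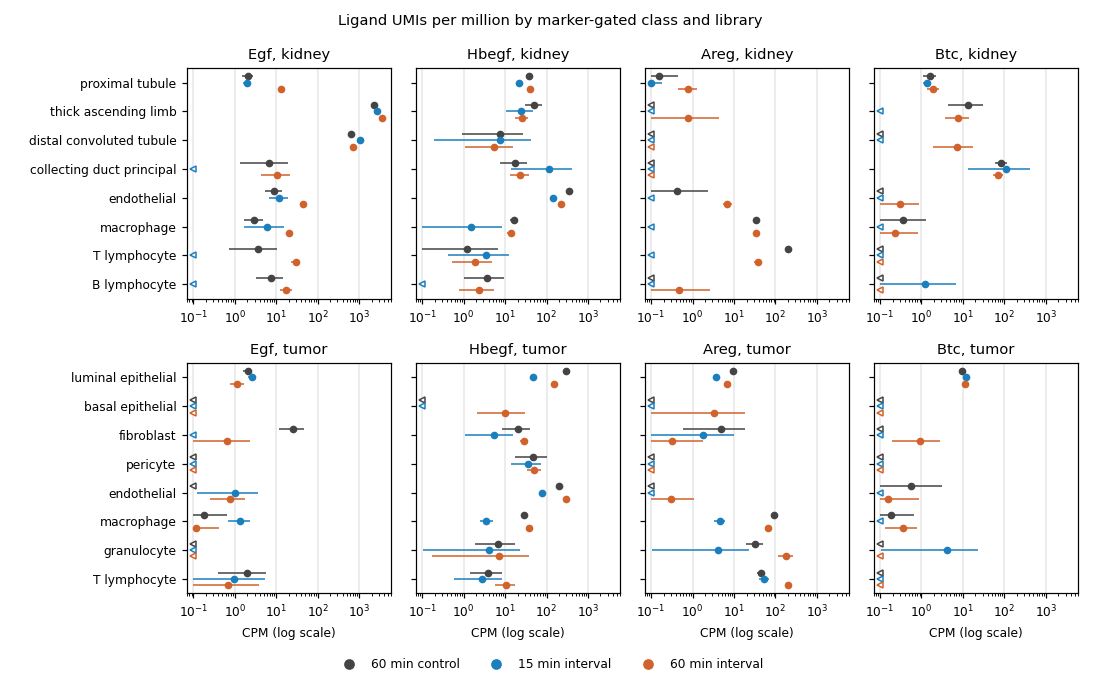
CPM of Egf, Hbegf, Areg and Btc (x axis, log scale) in 8 marker-gated classes of kidney (top) and tumor (bottom), with 1 point per library and bars for 95% Poisson intervals, which cover counting error only. Open triangles at 0.1 CPM mark libraries with no UMI and values under 0.1 are drawn there, and the 15 min Hbegf point is the lowest of the 3 in tumor luminal epithelial, endothelial and macrophage cells (46.7, 76.8 and 3.52 CPM).

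In the kidney, endothelial-like cells (578, 377 and 2493 cells) held 822, 209 and 2265 UMIs of Hbegf, or 342, 143 and 223 CPM, and their range over the libraries lay above that of every other class of at least 20 cells in each library. The 15 min level was 0.419 times the control (0.358 to 0.488) and the 60 min level 0.652 times (0.601 to 0.707). Hbegf was seen in 47.2, 35.8 and 42.3% of them at medians of 4106.5, 3768 and 3840 UMIs per cell, and in 1.06, 0 and 0.894% of B lymphocyte-like cells at 3536, 3568.5 and 3569 UMIs. At a floor of 3 counts, none of 220 B lymphocyte-like cells at 15 min allows a share of cells with a UMI of up to 1.36%. Thinned (20, 4 and 46 cells left out), the endothelial shares were 23.3, 13.4 and 15.6%. The control was highest and 15 min lowest on each of these scales. Proximal tubule-like cells had 38.2, 21.2 and 38.9 CPM, with 15 min at 0.555 times (0.506 to 0.609) and 60 min at 1.02 times the control (0.919 to 1.13). Without upper bounds on gene number and mitochondrial percentage, Hbegf over the libraries went from 28.3 to 61.6 CPM in these cells, from 6.21 to 58.5 CPM in distal convoluted tubule-like and from 16.5 to 95.9 CPM in intercalated-like cells, and the 15 min ratio in proximal tubule-like cells was 0.466. The 15 min proximal tubule-like cells also had the highest median mitochondrial share (10.9, 21.7 and 15.9%), and its part in the difference was not tested. Macrophage-like cells held 91, 1 and 118 UMIs, or 16.3, 1.53 and 13.5 CPM, so that 15 min was again lowest, at 0.0937 times the control (0.00235 to 0.536). Thick ascending limb-like cells had 50.8, 24.2 and 25.5 CPM.

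Areg, the gene of the ligand amphiregulin, was held by few cells and was close to absent from the 15 min kidney library. That library held 2 Areg UMIs in 2 of 8390 cells, compared with 441 UMIs in 64 control cells and 1164 UMIs in 149 cells at 60 min. In macrophage-like cells (818, 124 and 1433 cells) there were 184, 0 and 300 UMIs in 40, 0 and 56 cells, or 33.0, 0 and 34.4 CPM. The control and 60 min intervals overlapped, with a ratio of 1.04 (0.865 to 1.26). With the floor of 3 UMIs in place of 0, the 15 min level would be 7.19-fold lower than the control. This is not a bound, since the exact interval of the ratio, which takes in the counting error of the control, reached up to 0.173. Both figures treat UMIs as independent, although the 184 control UMIs lay in 40 cells. Areg was seen in 4.89, 0 and 3.91% of these cells, at medians of 6864, 5242 and 6076 UMIs, and at the floor of 3 counts none of 124 cells allows a share of cells with a UMI of up to 2.42%. Thinned to 1000 UMIs the shares were 1.98, 0 and 1.34%. B lymphocyte-like cells, which are not known for Areg, held 0, 0 and 1 UMI. If each class had kept its control level, 175 UMIs would have been counted in the 15 min kidney library. That figure takes in the control level of T lymphocyte-like cells, where 143 of 169 UMIs lay in 1 cell, so it leans heavily on that cell.

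Kidney T lymphocyte-like cells (154, 104 and 402 cells) had 203, 0 and 38.1 CPM, but these values rested on very few cells. The control held 169 UMIs in 5 cells, 143 of them in 1 cell, and the 60 min library 81 UMIs in 10 cells. The ratio of 60 min to control was 0.188 (0.142 to 0.246) with that cell and 0.705 without the cell that held the most in each library. Endothelial-like cells held 1, 0 and 70 UMIs, the 70 in 7 cells, which gave a ratio of 16.6 (2.88 to 663) for 60 min over control. Cells that met no class gate held 62, 1 and 681 UMIs of Areg in 13, 1 and 62 cells, so that at 60 min more than in any class came from cells without a class. In the tumor, macrophage-like cells held 2154 Areg UMIs over the libraries, luminal epithelial-like cells 609, T lymphocyte-like cells 425 and cells without a class 372.

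In the tumor, macrophage-like cells (931, 944 and 1432 cells) held 997, 41 and 1116 UMIs of Areg, or 91.2, 4.51 and 65.8 CPM. The number of cells with a UMI was 120, 3 and 113, or 12.9, 0.318 and 7.89%, at medians of 11995, 9351 and 11928.5 UMIs per cell. The 15 min level was 0.0494 times the control (0.0353 to 0.0676), and 22 of its 41 UMIs came from 1 cell. Thinned to 1000 UMIs (18, 13 and 9 cells left out), 5.37, 0 and 2.95% of cells held Areg. The control was highest and 15 min lowest, and endothelial-like cells, in which Areg was near absent, had 0, 0 and 0.251% of cells with a UMI. At 60 min the level in macrophage-like cells was 0.722 times the control (0.662 to 0.787).

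Areg in tumor T lymphocyte-like cells (197, 159 and 265 cells) did not have this order. These cells held 70, 56 and 299 UMIs in 11, 17 and 72 cells, or 45.1, 52.4 and 206 CPM. The 15 min level was 1.16 times the control (0.804 to 1.68) and the 60 min level 4.57 times (3.52 to 6.02). The first 2 libraries therefore overlapped and 60 min stood above both. The share of cells with a UMI was 5.58, 10.7 and 27.2%, and 2.62, 5.03 and 20.3% after thinning, although the median depth was lowest at 60 min (8001, 5823 and 4496 UMIs). No cell held more than 23 UMIs. Of these cells 67, 40 and 41 lay at the margin of the gate.

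Luminal epithelial-like cells of the tumor held 300, 145 and 164 Areg UMIs, or 9.62, 3.68 and 6.86 CPM, with 15 min lowest at 0.382 times the control (0.311 to 0.468) and 60 min at 0.713 times (0.586 to 0.865). Areg was seen in 3.28, 1.81 and 2.13% of them, and in 0.624, 0.384 and 0.413% after thinning. Luminal epithelial-like cells with an Areg UMI held Hbegf more often than those without, in 78.6 against 35.7%, 47.9 against 13.7% and 63.5 against 25.3% of cells. The cells with Areg were also deeper, at medians of 12811.5 against 8184, 10851 against 9791.5 and 13340.5 against 9193 UMIs. At 1000 UMIs per cell the shares with Hbegf were 32.1 against 13%, 19.7 against 2.77% and 25 against 7.30%, higher beside Areg in 3 of 3 libraries. Granulocyte-like cells had 32.0, 4.16 and 181 CPM of Areg, and 25 of the 26 UMIs at 60 min lay in 1 cell.

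**Figure D2:**
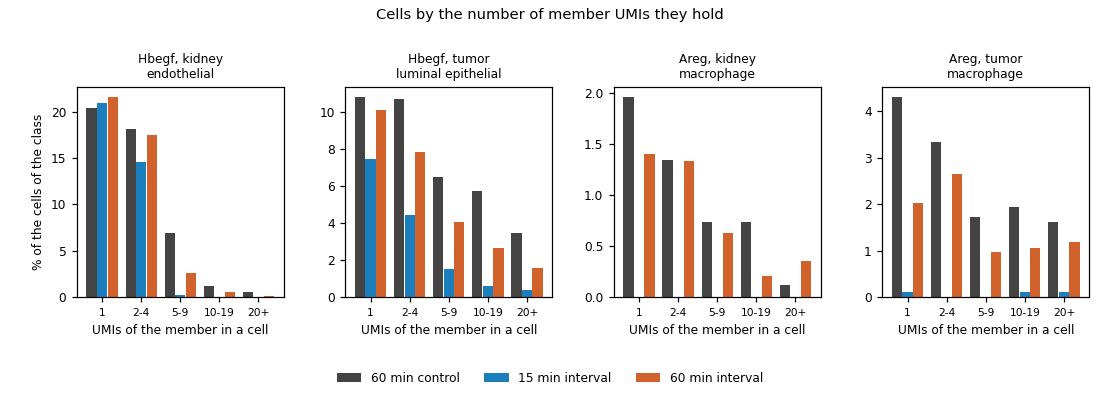
Percent of the cells of a class (y axis) that held 1, 2 to 4, 5 to 9, 10 to 19, or 20 and more UMIs of Hbegf or Areg (x axis) in each library. The 15 min bars are lower than those of the control in every bin above 1 UMI in these 4 panels, and no kidney macrophage-like cell held Areg at 15 min.

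Ereg, the gene of epiregulin and the neighbor of Areg, was close to absent. The kidney libraries held 0, 0 and 1 UMI and the tumor libraries 17, 1 and 11 UMIs in 6, 1 and 2 cells. No comparison was made for it.

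Tgfa, the gene of transforming growth factor alpha, was sparse in both tissues. The kidney libraries held 15, 8 and 28 UMIs, of which 25 of 51 lay in endothelial-like cells. In the tumor, luminal epithelial-like cells had 4.94, 3.50 and 3.85 CPM, with 15 min at 0.709 times the control (0.559 to 0.897), and endothelial-like cells 5.10, 3.58 and 8.16 CPM. The luminal control was the highest of its 3 libraries. In cycling luminal epithelial-like cells Tgfa was 2.06 (0.966 to 3.89), 3.12 (1.13 to 6.98) and 2.35 (0.983 to 4.85) times as high as in the others, with intervals that held 1 in 2 of the 3 libraries.

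Btc, the gene of betacellulin, was an epithelial transcript in both tissues. In tumor luminal epithelial-like cells it was not lower at 15 min, while Areg on the same chromosome was. Over the whole kidney library Btc was lower at 15 min (2.41 CPM in the control and 1.32 CPM at 15 min, ratio 0.548, 0.397 to 0.755). The median ratio of all genes there was 0.749, with 30.8% of genes past 2-fold. If each class had kept its control level, that library would have held 97.8 Btc UMIs for its mix of classes, and 81 were counted. Tumor luminal epithelial-like cells held 96.6% of the Btc UMIs of the tumor and had 9.56, 11.7 and 11.0 CPM, in 7.87, 9.95 and 9.53% of cells. Its 15 min level was 1.23 times the control (1.06 to 1.43). In the kidney, collecting duct principal-like cells had 82.6 and 71.8 CPM in the control and at 60 min, a ratio of 0.868 (0.554 to 1.37), and at 15 min there were only 12 such cells, with 2 UMIs. Proximal tubule-like cells had 1.60, 1.39 and 1.94 CPM of Btc, with 15 min at 0.867 times the control (0.565 to 1.36), and thick ascending limb-like cells held 5 UMIs in the control and 0 at 15 min. Within the proximal tubule-like cells, those that held more markers of the first segment (S1) were at 3.26, 3.19 and 3.37 CPM. Those with more markers of the later segments (S2 to S3) were at 0.723, 0.384 and 0.247 CPM. The ratio of S1 to S2 to S3 cells was 4.51 (1.93 to 11.7), 8.32 (4.52 to 16.5) and 13.6 (3.47 to 117), above 1 in 3 of 3 libraries.

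Egfr, the receptor of all 6 ligands, had most of its kidney UMIs in proximal tubule-like cells. Proximal tubule-like cells (3090, 7196 and 2950 cells) had 13.2, 17.9 and 19.9 CPM of Egfr, and this range lay above that of the thick ascending limb-like cells, next in order among classes of at least 20 cells in each library, at 5.35, 3.03 and 4.63 CPM. Smaller classes were at a like level: collecting duct principal-like cells had 19.6 and 24.4 CPM (9 and 16 UMIs) in the control and at 60 min and 0 UMIs in 12 cells at 15 min, and stromal-like cells 24.8 and 17.2 CPM (3 UMIs each) in the control and at 60 min. Endothelial-like cells had only 0.416, 1.37 and 0.591 CPM. The 15 min level in proximal tubule-like cells was 1.36 times the control (1.19 to 1.57) and the 60 min level 1.51 times (1.29 to 1.78). It was seen in 7.38, 12.5 and 11.1% of these cells and, thinned, in 1.49, 1.89 and 2.13%, so both device libraries were above the control. S1 cells were 2.12 (1.63 to 2.78), 1.71 (1.5 to 1.95) and 1.94 (1.53 to 2.48) times as high as S2 to S3 cells. Hbegf had the same order, with S1 at 1.63, 1.77 and 2.13 times S2 to S3. Erbb2 (1.53, 2.99 and 1.48 times) and Btc were also higher in S1 cells in 3 of 3 libraries, so this order was not particular to Hbegf and Egfr. Erbb3 (0.943, 1.63 and 1.33 times) and Egf (1.12, 1.49 and 0.830 times) were not higher in each library. Areg and Tgfa, sparse in these cells, were lower in S1 cells over the libraries. These ratios were not set beside those of all genes.

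Erbb2 and Erbb3 were spread more widely over the nephron. Erbb2 was at 21.4, 21.2 and 23.2 CPM in thick ascending limb-like cells and 5.11, 6.00 and 7.62 CPM in proximal tubule-like cells. Collecting duct principal-like cells had 28.3 and 24.4 CPM in the control and at 60 min. At 15 min there were only 12 of them, with 0 UMIs of Erbb2 at a median depth of 738.5 UMIs, too few for a level. Endothelial-like cells had 6.24, 6.85 and 6.89 CPM of Erbb2 and did not differ from proximal tubule-like cells beyond the spread of the libraries. Erbb3 was at 14.5, 18.2 and 20.9 CPM in proximal tubule-like cells and at 13.4, 30.3 and 13.1 CPM in thick ascending limb-like cells, which overlapped. In proximal tubule-like cells the 60 min level was 1.49 times the control for Erbb2 (1.15 to 1.94) and 1.44 times for Erbb3 (1.23 to 1.68). At 15 min it was 1.17 times for Erbb2 (0.935 to 1.48) and 1.26 times for Erbb3 (1.10 to 1.44). The median ratio of all genes compared in these cells was 0.860 at 15 min and 1.09 at 60 min.

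**Figure D3:**
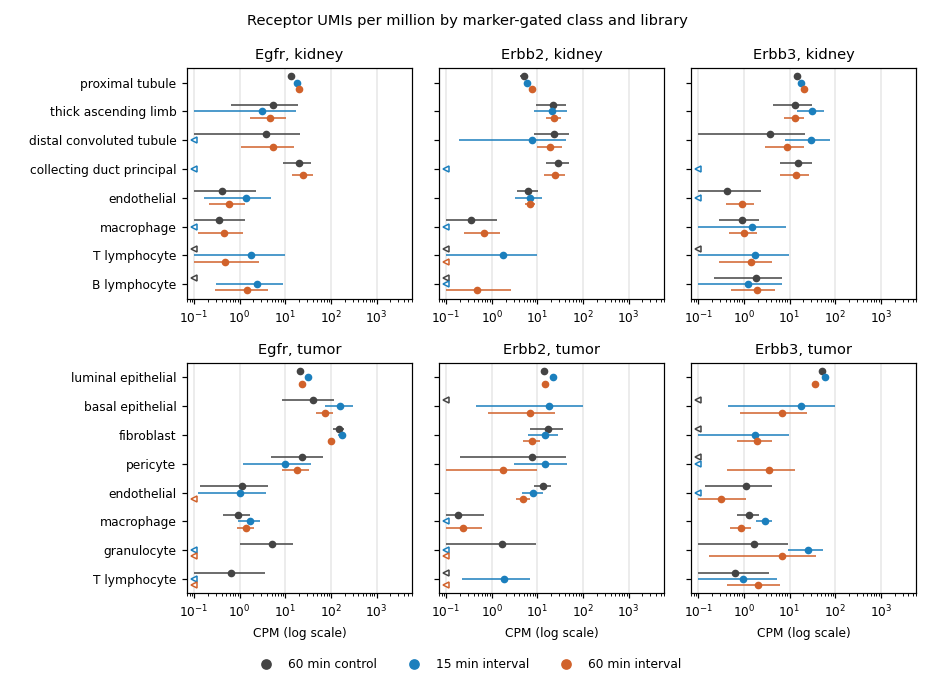
CPM of Egfr, Erbb2 and Erbb3 (x axis, log scale) in 8 marker-gated classes of kidney (top) and tumor (bottom), with 1 point per library, bars for 95% Poisson intervals and open triangles at 0.1 CPM for libraries with no UMI. Tumor fibroblast-like cells lie highest for Egfr in the control (147 CPM) and luminal epithelial-like cells for Erbb3 (51.7, 59.1 and 35.8 CPM).

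In the tumor, Egfr was highest in fibroblast-like cells (40, 68 and 296 cells), with 59, 97 and 313 UMIs, or 147, 173 and 98.5 CPM, in 60.0, 61.8 and 54.4% of cells. This range lay above that of luminal epithelial-like cells, next in order among classes of at least 20 cells per library, with 20.6, 30.7 and 23.2 CPM. In fibroblast-like cells 60 min was 0.569 times 15 min (0.452 to 0.722). Macrophage-like cells had 0.914, 1.65 and 1.36 CPM, and T lymphocyte-like cells held 1, 0 and 0 UMIs. The basal epithelial-like class had 40.8, 161 and 74.0 CPM, from only 10, 7 and 40 cells.

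The 3 receptors were higher at 15 min than in the control in luminal epithelial-like cells, where Hbegf, Areg and Tgfa were lower. Egfr was 1.49 times as high (1.35 to 1.64), with 15.8, 24.3 and 18.7% of cells positive and 2.26, 2.89 and 2.35% after thinning. Erbb2 had 14.2, 22 and 14.3 CPM, a ratio of 1.55 (1.38 to 1.74) at 15 min and 1.01 at 60 min. Erbb3 had 51.7, 59.1 and 35.8 CPM, a ratio of 1.14 (1.07 to 1.22) at 15 min and 0.694 (0.638 to 0.754) at 60 min. The median ratio of all genes compared in the class was itself 1.14 at 15 min and 0.987 at 60 min, so that Erbb3 at 15 min lay at the median. Without upper bounds on gene number and mitochondrial percentage, the 15 min ratio of Erbb3 was 0.966. Erbb3 was seen in 29.9, 39.3 and 25.9% of luminal epithelial-like cells and, thinned, in 4.93, 5.15 and 3.51%. Endothelial-like cells had 13, 8.19 and 4.92 CPM of Erbb2, 60 min being 0.378 times the control (0.214 to 0.676).

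The members were set beside all genes with at least 20 UMIs over both libraries, counting those whose CPM differed at least 2-fold. In tumor luminal epithelial-like cells, 2 of 8 members passed at 15 min against the control (Hbegf and Areg, both lower), with 5.91% of 13968 genes, and 1 of 8 at 60 min (Hbegf, lower), with 3.90% of genes. In tumor macrophage-like cells, 3 of 4 passed at 15 min (Hbegf and Areg lower, Erbb3 higher), with 15.7% of genes, and 0 of 4 at 60 min, with 7.92%. The Erbb3 levels there were 1.28 and 2.86 CPM. In tumor T lymphocyte-like cells, 0 of 1 passed at 15 min, with 11.0% of genes, and 2 of 2 at 60 min (Hbegf and Areg, both higher), with 11.1%. The Hbegf counts there were 6 UMIs in the control and 15 at 60 min, most of the 15 in 1 cell. In tumor endothelial-like cells, 1 of 2 passed at 15 min (Hbegf, lower), with 5.25%, and 1 of 3 at 60 min (Erbb2, lower), with 5.85%.

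In the kidney, 0 of 6 members passed in proximal tubule-like cells at 15 min, with 4.36% of genes past 2-fold, and 1 of 6 at 60 min (Egf, higher), with 8.52%. In endothelial-like cells, 1 of 3 passed at 15 min (Hbegf, lower), with 6.13%, and 2 of 5 at 60 min (Egf and Areg, both higher), with 6.76%. In macrophage-like cells, 3 of 3 passed at 15 min (Egf higher, Hbegf and Areg lower), with 14.4% of genes, and 1 of 3 at 60 min (Egf, higher), with 5.67%. The Egf count in macrophage-like cells at 15 min was 4 UMIs, and its ratio of 2.13 had an interval of 0.519 to 6.61. These classes are not known to make Egf, and Umod was also higher at 60 min than in the control. It went from 7.75 to 44.5 CPM in proximal tubule-like, 49.5 to 208 in endothelial-like and 12.7 to 61.5 in macrophage-like cells. What part RNA from other cells had in these Egf passes was not tested. The 70 Areg UMIs of endothelial-like cells at 60 min lay in 7 cells. With members this few, the counts describe these libraries and no more.

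**Figure D4:**
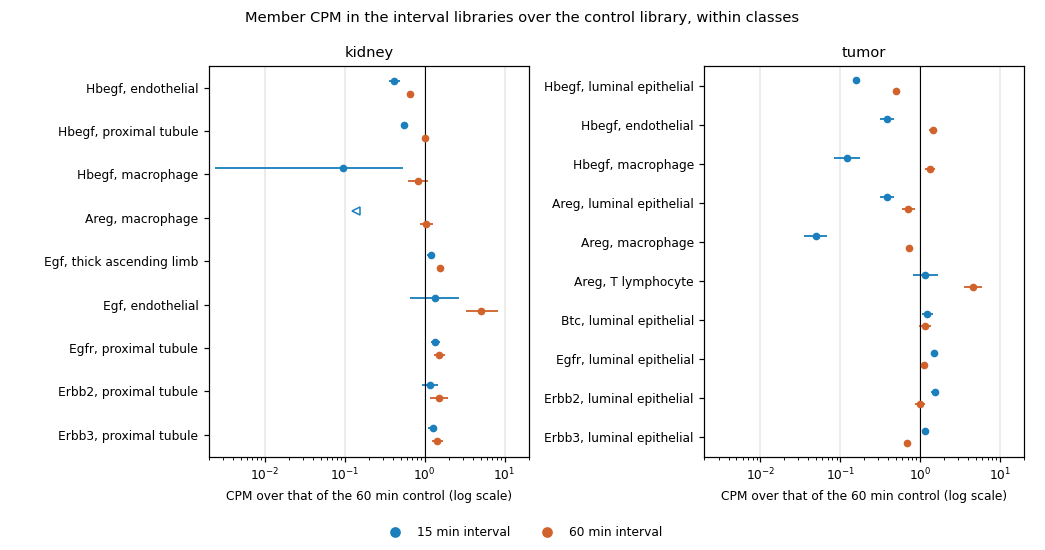
CPM of members in the 15 min and 60 min interval libraries over that of the 60 min control (x axis, log scale), with bars for 95% counting intervals. The members and classes were chosen for display and are not always those with the most UMIs. The open triangle for Areg in kidney macrophage-like cells stands at the floor of 3 UMIs, since no UMI was counted. The lowest plotted ratio with UMIs is that of Areg in tumor macrophage-like cells (0.0494).

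**Figure D5:**
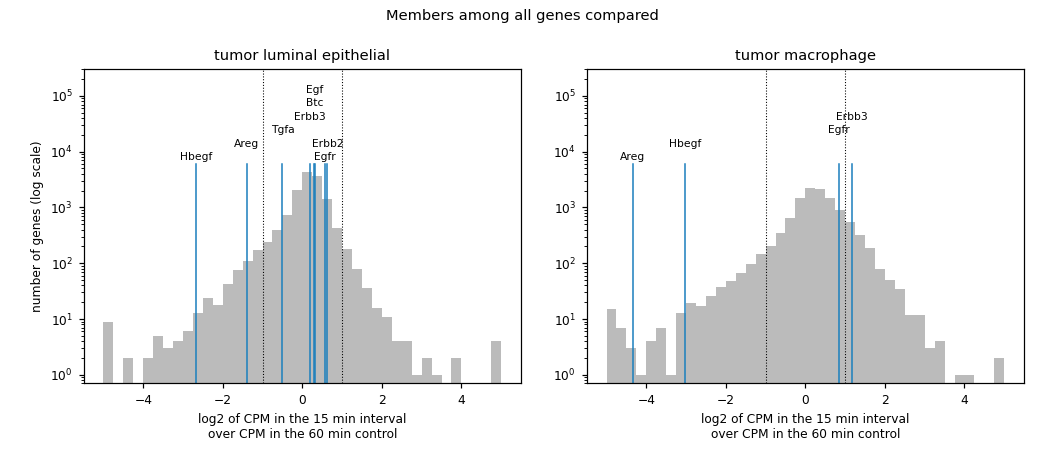
Number of genes (y axis, log scale) by log2 ratio of the 15 min interval to the 60 min control (x axis) in tumor luminal epithelial-like and macrophage-like cells, with blue lines for members, dotted lines at 2-fold and genes beyond 5 placed in the end bars. Hbegf and Areg lie left of the dotted line in both panels, and the receptors lie right of 0.

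A list of 38 further genes of the pathway, which covered the remaining receptor and ligands, the proteases that release ligands, the RAS and ERK relay, feedback genes and ETS factors, mostly stayed within 2-fold. In tumor luminal epithelial-like cells at 15 min, 37 were compared, of which 0 were higher and 2 lower, beside 5.91% of all genes past 2-fold. These were Errfi1, a feedback inhibitor of the receptors that went from 338 to 127 CPM (ratio 0.377, 0.365 to 0.390), and Ets2, a transcription factor downstream of ERK that went from 105 to 52.3 CPM (0.50, 0.473 to 0.528). The median ratio was 1.06 for the list and 1.14 for all genes. At 60 min 2 were higher (the ligands Epgn, 2.05, and Nrg4, 3.71) and 0 lower, beside 3.90% of all genes past 2-fold. The medians were then 0.934 for the list and 0.987 for all genes. Errfi1 was the highest gene of the list in these cells, with 218 CPM over the libraries, and the ligand gene Nrg3 was the lowest, with 0.

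In tumor macrophage-like cells at 15 min, 28 genes of the list were compared, of which 1 was higher and 4 lower, 5 of 28 beside 15.7% of all genes past 2-fold, so the list did not stand out by its count. The ERK phosphatase Dusp6 went from 29.8 to 165 CPM (5.55, 4.92 to 6.27), and the ratios were 0.303 for Errfi1 (0.278 to 0.331), 0.129 for the ligand Nrg1, 0.462 for Rhbdf2, a partner of the shedding protease ADAM17, and 0.340 for the kinase Braf. At 60 min Dusp6 (3.21) and the feedback gene Spry1 (3.33) were higher among 28 compared, beside 7.92% of all genes past 2-fold. In tumor T lymphocyte-like cells at 60 min, 25 were compared, beside 11.1% of all genes past 2-fold, of which Spry1 (4.74), Spry2 (2.44), Dusp6 (2.25) and Socs5 (3.61) were higher and Errfi1 (0.384) lower. Tumor endothelial-like cells had Errfi1 lower at 15 min (0.323) and the ETS factor Etv5 higher (2.11) among 29 compared, beside 5.25% of all genes past 2-fold.

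In the kidney, 0 of 33 list genes passed 2-fold in proximal tubule-like cells at 15 min, beside 4.36% of all genes. The medians were 0.844 for the list and 0.860 for all genes. At 60 min 1 of 33 passed (Socs5, 2.12, 1.27 to 3.66), beside 8.52% of all genes. Endothelial-like cells had Errfi1 lower at 15 min (0.414, 0.282 to 0.595) among 28 compared, beside 6.13% of all genes past 2-fold. At 60 min 0 of 30 passed, beside 6.76% of all genes. Counts this small do not set the list apart from all genes. In macrophage-like cells at 15 min, Rhbdf2 (0.255) and Ets2 (0.331) were lower among 26 compared, beside 14.4% of all genes past 2-fold. Not every class with list genes past 2-fold at 15 min is described above. Thick ascending limb-like cells had 0 of 11 higher and 2 lower, beside 11.4% of all genes. Kidney T lymphocyte-like cells had 1 of 19 higher and 2 lower, beside 8.96%, and tumor granulocyte-like cells 0 of 17 higher and 4 lower, beside 20.9%. Among the classes described, Errfi1 was lower than the control at 15 min, beyond 2-fold, in 4. These were the luminal epithelial-like, macrophage-like and endothelial-like cells of the tumor and the endothelial-like cells of the kidney. The classes were not the same for Hbegf, which was lower in these 4 but also in kidney macrophage-like cells, where the Errfi1 ratio was 0.793, in proximal tubule-like cells (Hbegf 0.555, Errfi1 0.870) and in thick ascending limb-like cells (Hbegf 0.477, 0.180 to 1.14).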

How the data were processed

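RNA was measured in 3 kidney and 3 mammary tumor droplet libraries, with 1 library per condition. The authors aligned reads to mm10 with Cell Ranger 3.1.0 (build and version per the submitters' processing notes) and merged each tissue's libraries with the aggregation command, which evens read depth. They deposited UMI counts, whole numbers for each gene in each barcode. The annotation release is not given in the sources used here. Depth is therefore partly equalised and the UMIs removed cannot be recovered. Egf, Ereg, Egfr and Erbb2 overlap genes of the opposite strand, and whether the counting used strand is not given in the sources used here.

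From these counts, cells with 200 to 3000 (kidney) or 4000 (tumor) genes and at most 50 or 25% mitochondrial UMIs were kept, following the study's limits. No doublet caller was run, so doublets were handled through the gene limit alone. Cells were gated by 14 kidney and 12 tumor lists of 8 markers (at least 3 held, and 2 more than of any other class), a threshold set after the gate sizes had been seen. Proximal tubule-like cells were split into S1 and S2 to S3 and luminal epithelial-like cells by cycling markers. The members, marker lists and pathway list were chosen with earlier results of these data known. All members were named. Pathway genes were named where their CPM differed at least 2-fold in some of the classes that hold a member, or as highest and lowest. For likeness, the 5 genes with the highest Pearson correlation of log2(CPM + 10) over classes of at least 50 cells were taken.

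Ratios between libraries needed 50 cells of a class in each library. Ratios by segment or cycling markers within a library had no such limit. All were computed with 95% intervals, and counts past 2-fold over genes with at least 20 UMIs. Shares were also computed on cells thinned to 1000 UMIs. A count of 0 was set to a floor of 3 counts. The ratio and its interval were tested on simulated counts, drawn independently from the summed UMIs of kidney endothelial-like cells. The simulation held no clustering of UMIs in few cells, so it does not show how the intervals perform under such clustering. Python 3.11.15, numpy 2.4.6, pandas 2.3.3, scipy 1.17.1 and matplotlib 3.10.9 were used. The alternatives were another CPM denominator, all deposited barcodes, per-cell means, a stricter gate, no upper limits, thinning, other fold limits and UMI minimums, and, chosen after seeing the data, leaving out the cell with the most UMIs and barcodes found in several libraries.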

Additional observations from a re-analysis of the deposited data

Results flagged for a closer look

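Hbegf in endothelial-like cells had opposite directions in the 2 tissues at 60 min. It was 0.652 times the control in the kidney and 1.45 times in the tumor, so the tumor ratio was 2.22 times the kidney ratio. With 1 library per condition this difference was not tested.

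Areg in T lymphocyte-like cells also had opposite directions, with 0.188 times the control in the kidney and 4.57 times in the tumor at 60 min, a tumor ratio 24.3 times the kidney ratio. The kidney control value rested on 1 cell with 143 of 169 UMIs. Without the cell that held the most in each library, the ratios were 0.705 and 6.33. This difference was not tested either.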

How the results depend on the processing

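No paired analysis was possible because each condition had 1 library. Without barcodes found in several libraries, 30 of 30 ratios moved by less than their counting interval. In all, 174 of 210 ratios and 32 of 90 levels stayed within it, 35 and 58 moved beyond it, and 1 ratio changed direction: Erbb3 in luminal epithelial-like cells at 15 min, at 1.14, was 0.966 without upper limits. All 9 shares of cells with a UMI moved on thinning. Whole-library levels changed as follows with UMIs outside mitochondrial genes as denominator, all deposited barcodes and per-cell means: Areg in the kidney control, 13.1 CPM, was 14.9, 7.20 and 11.7, and at 60 min, 22.2 CPM, it was 25.8, 12.1 and 20.7. Hbegf in the tumor control, 201 CPM, was 219, 270 and 157, at 15 min, 37.8 CPM, it was 41.0, 47.8 and 35.8, and at 60 min, 109 CPM, it was 119, 115 and 99.9. Egf in thick ascending limb-like cells over the libraries, 3175 CPM, was 3264 with the stricter gate, 3006 without upper limits and 2760 as a per-cell mean, and Erbb3 in proximal tubule-like cells, 18.0 CPM, was 20.8 without upper limits. Without upper limits, the 15 min ratio of Egfr in proximal tubule-like cells was 1.62 and the 60 min ratio of Hbegf in luminal epithelial-like cells 0.429. Per-cell means gave Hbegf ratios in the latter of 0.196 at 15 min and 0.553 at 60 min, and thinning 0.189 and 0.559. Thinned, the 60 min ratio of Hbegf in kidney endothelial-like cells was 0.589, and the ratios of Areg in tumor macrophage-like cells 0 at 15 min and 0.574 at 60 min. The last was 0.662 with the stricter gate, and the 15 min ratio was 0.0242 without the cell with the most UMIs. In luminal epithelial-like cells at 15 min, 3 of 8 members passed 1.5-fold. The limits on genes and mitochondrial share kept 28.6 to 87.8% of the deposited UMIs of a kidney member. The precision of sparse members (Ereg, Tgfa, and Areg in classes with under 10 positive cells) is limited by the number of cells.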

Other observations

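Areg had a sizable source outside the gated classes. In the kidney, 62 of the 1230 cells without a class held it at 60 min, 33 of them with fewer than 3 markers of any list and 29 between 2 classes, and the most in 1 cell was 67 UMIs. In the control 13 of 486 such cells and at 15 min 1 of 183 held it. In the tumor the numbers were 27 of 454, 5 of 236 and 32 of 467 cells, with 182, 16 and 174 UMIs.

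The genes whose levels were most like those of a member over the classes (14 in kidney and 11 in the tumor, libraries summed) are given with Pearson's r as a description. The classes share libraries and, in part, free RNA, and some of the genes are themselves gate markers. For Egf in the kidney they were Ppp1r1a (0.974), Umod (0.943), Abca13 (0.937), Wfdc15b (0.934) and Mfsd4a (0.918), of which Umod, Abca13 and Wfdc15b are gate markers. For Hbegf they were led by Tspan4 in the kidney (0.943) and Gmpr in the tumor (0.915), and for Areg by Abcg3 in the kidney (0.891) and Sh3kbp1 in the tumor (0.910). Btc was most like Zfp750 in the tumor (0.998), Tgfa most like Fzd6 in the tumor (0.973), Egfr most like Tspyl5 in the kidney (0.934) and Wdr35 in the tumor (0.983), Erbb2 most like Ppp2r3a (0.972) and Mtss1l (0.967), and Erbb3 most like Fermt1 (0.959) and Fcgbp (0.979) in the same order.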
